A study of Anas platyrhynchos with 6 samples.

Results

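The zona pellucida (ZP) genes encode the glycoproteins of the egg coat, which in birds is the inner perivitelline layer around the oocyte. They were described in RNA sequencing libraries of ovarian tissue from 6 ducks (Anas platyrhynchos). Members were the rows of the deposited table with a symbol of the form ZP and a number, ZPAX or ZPD. The table's own symbol column gave 1 such row, ZP2, and ZP4 was added through its Entrez identifier, which a RefSeq gene table names ZP4. These are 2 genes of 16450 in the table. No row was matched to ZP1, ZP3, ZPAX or ZPD, and these genes were not analysed here. The ducks, 71 weeks old and from a full-sib family, formed a group of 3 with a high egg number (HEN) and a group of 3 with a low egg number (LEN). Feed had been withheld from all 6 before they were killed, and each duck gave 1 library from frozen ovarian tissue. The labels give no treatment, no genotype beyond the family and no account of which part of the ovary or which follicles were sampled.

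Egg coat proteins share a ZP module, through which they polymerise into filaments after a furin-type protease has released them from the membrane. In birds ZP1 is known as a product of the liver and ZP3 as a product of granulosa cells, the follicle cells next to the oocyte, whereas ZP2 and ZP4 transcripts are known from the oocyte itself. In the mouse the oocyte transcription factor FIGLA is needed for the expression of the Zp genes.

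ZP2 (ENSAPLG00000016302) lies on scaffold KB743005.1 from 2523014 to 2529491 on the minus strand, in the coordinates of the deposited table, and ZP4 (ENSAPLG00000002531) on scaffold KB742808.1 from 5451 to 8251 on the plus strand. Both are protein-coding, have 1 row each and overlap the position of no other gene in the table. The steps between the deposited values corresponded to transcripts of 2103 bases for ZP2 and 1083 bases for ZP4 and to 18213744 to 19831761 fragments per library. The same steps gave the fragments behind each value. Intervals from them cover counting error only, because PCR copies cannot be separated.

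The libraries were not alike within the HEN group. Across 13328 transcripts averaging 1 FPKM or more (FPKM is a level corrected for transcript length and sequencing depth), the log2(FPKM + 1) values of HEN replicates 2 and 3 had a Pearson correlation of 0.965, but of 0.748 and 0.752 with those of HEN replicate 1. HEN replicate 1 was closer to LEN, with correlations of 0.933 to 0.964, so results are given with and without these libraries. Transcripts are not independent replicates, and these correlations describe the libraries only.

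ZP2 and ZP4 were abundant in 4 ovaries and below 2 FPKM in the other 2, both of the HEN group. In no HEN ovary did either gene reach the level of the lowest LEN ovary. ZP2 was at 219, 0.152 and 1.72 FPKM in HEN ovaries 1, 2 and 3, against 309, 252 and 704 FPKM in LEN ovaries 1, 2 and 3. ZP4 was at 74.2, 0.0985 and 0.608 FPKM in HEN ovaries 1, 2 and 3, against 102, 92.4 and 275 FPKM in LEN ovaries 1, 2 and 3. For both genes the order was HEN replicate 2, HEN replicate 3, HEN replicate 1, LEN replicate 2, LEN replicate 1 and LEN replicate 3, low to high. Within LEN, the highest ovary exceeded the lowest by 2.79 times for ZP2 and 2.98 times for ZP4. HEN replicate 1 was at 0.868 of the lowest LEN value for ZP2 and 0.803 for ZP4, a gap smaller than this spread among LEN ducks.

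**Figure D1:**
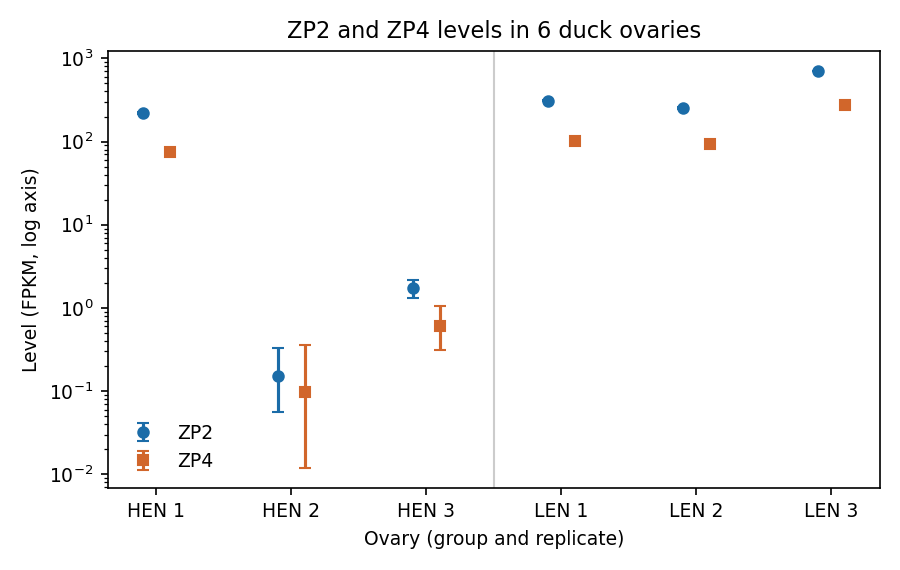
Levels of ZP2 (circles) and ZP4 (squares) in FPKM on a log axis for each of 3 HEN and 3 LEN ovaries. Bars are 95% Poisson intervals of the inferred fragments and cover counting error only. HEN replicates 2 and 3 lie below 2 FPKM for both genes, and the other 4 ovaries lie above 70 FPKM.

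The low values rest on few fragments. A count of 3 fragments equalled 0.0719 to 0.0783 FPKM for ZP2 and 0.14 to 0.152 FPKM for ZP4. In HEN replicate 2, ZP2 had 6 fragments (95% Poisson interval 2.2 to 13.1) and ZP4 had 2 fragments (0.24 to 7.2). In HEN replicate 3, ZP2 had 66 fragments (51.0 to 84.0) and ZP4 had 12 (6.2 to 21.0). HEN replicate 1 had 8750 fragments of ZP2 and 1527 of ZP4, and the LEN libraries had 10524 to 27141 fragments of ZP2 and 1985 to 5464 of ZP4. Counting error is therefore small in 4 libraries and large in HEN replicate 2, and for ZP4 it is also large in HEN replicate 3.

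As a share of the LEN mean, the ZP2 level was 51.9% in HEN replicate 1, 0.0361% in HEN replicate 2 (interval 0.0132% to 0.0785%) and 0.409% in HEN replicate 3 (0.316% to 0.52%). The ZP4 level was 47.4%, 0.0629% (0.00762% to 0.227%) and 0.389% (0.201% to 0.679%) of the LEN mean in the same 3 libraries. Between HEN replicates 1 and 2 the level differed by 1440 times for ZP2. In rank, ZP2 stood 224th from the top of all transcripts in HEN replicate 1 and 125th, 162nd and 39th in LEN replicates 1, 2 and 3, but 13708th and 11357th in HEN replicates 2 and 3. ZP4 ranked 1103rd in HEN replicate 1, 14049th in HEN replicate 2 and 12619th in HEN replicate 3, against 630th, 682nd and 206th in LEN replicates 1, 2 and 3.

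The comparison of HEN with LEN addressed which ovarian transcripts differ with egg number. Neither ZP gene passed the test across all transcripts. ZP2 averaged 73.6 ± 126 FPKM over the HEN ducks, against 422 ± 246 FPKM over the LEN ducks (SD, n = 3 each). On the log2(FPKM + 1) scale HEN minus LEN was -5.43 ± 1.82 (SE). ZP4 averaged 24.98 ± 42.7 FPKM over the HEN ducks, against 157 ± 103 FPKM over the LEN ducks (SD, n = 3 each), and HEN minus LEN was -4.76 ± 1.54 (SE) on that scale. limma's moderated test gave an unadjusted p of 0.0206 for ZP2 and 0.0175 for ZP4, and a Benjamini-Hochberg adjusted p of 0.226 for both. An exact permutation test of the 3 against 3 ducks gave a two-sided p of 0.1 for each gene, the smallest that this design allows. The pseudocount of 1 compresses values below 1 FPKM, so the log2 differences understate the change of such low levels.

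Calls over all transcripts set the background for these values. With the adjusted p held to 0.05, limma called 0 of 13328 transcripts (0%) and 0 of the 2 ZP genes. At an unadjusted p under 0.05, 16.9% of transcripts were lower in HEN and 5.1% higher, and both ZP genes were among the lower ones. Every HEN value lay below every LEN value for both ZP genes and for 13.4% of all transcripts. The median difference over all transcripts was -0.24, and the ZP2 difference ranked 3rd from the lowest and that of ZP4 27th from the lowest among 13328. These ranks were taken at a pseudocount of 1, and the order of genes changed with it. With a pseudocount of 0.01 ZP2 was at -6.59 and ZP4 at -6.33. The oocyte and germ cell genes DAZL (-7.95), LHX8 (-7.57) and BTG4 (-6.67) were then lower than both. ZAR1L (-6.54) lay between ZP2 and ZP4, and MOS (-6.16) and CPEB1 (-3.69) were lower than neither. Of the genes nearest in profile, described below, KPNA7, SYPL1, CCDC201, BIRC7 and BRDT were also lower than both, at -7.11 to -6.8. CAV3 (-6.46) lay between ZP2 and ZP4, and TMOD1 (-6.06) and TBPL2 (-5.895) were lower than neither. After upper quartile scaling, which moved the median of all transcripts to 0.01, the differences were -5.26 for ZP2 and -4.62 for ZP4.

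The size and the call both depended on which HEN libraries were kept. Without HEN replicate 1, limma's adjusted p was 1.7e-05 for ZP2 and 2.15e-05 for ZP4, with differences of -7.75 ± 0.48 and -6.70 ± 0.45 (SE). In that setting 37% of all transcripts were called lower in HEN and 11.8% higher, so that a call was common. Without HEN replicates 2 and 3 the differences were -0.79 ± 0.56 for ZP2 and -0.88 ± 0.58 for ZP4 (SE), with an adjusted p of 0.9999 for both. There 0.0075% of transcripts were called higher and 0% lower, and HEN replicate 1 stands alone and is assumed to vary like the LEN ducks. With arrayWeights, which give each library a weight by its spread, both genes were called lower, as were 43% of transcripts, against 16.5% called higher. Over all alternatives tried, the adjusted p ran from 1.7e-05 to 0.9999 for ZP2 and from 2.15e-05 to 0.9999 for ZP4, with HEN below LEN in each.

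While the ZP2 level varied by 1440 times among HEN ovaries, the ratio of ZP2 to ZP4 within an ovary lay between 1.54 and 3.03. FPKM is a value per length, so the 2 genes can be set side by side. ZP2 stood at 2.95 times the ZP4 level in HEN replicate 1 (95% Clopper-Pearson interval 2.79 to 3.12) and at 2.83 times in HEN replicate 3 (1.52 to 5.76). In HEN replicate 2 the ratio was 1.54, from 6 and 2 fragments, with an interval of 0.276 to 15.7 that holds the ratios of all other ovaries. LEN replicates 1, 2 and 3 had ratios of 3.03 (2.90 to 3.18), 2.73 (2.60 to 2.87) and 2.56 (2.48 to 2.63). The intervals of LEN replicates 1 and 3 do not overlap, and these ratios differ by more than counting error although both are LEN ducks. ZP2 was the higher of the pair in all 6 ovaries, although in HEN replicate 2 the interval includes a ratio of 1.

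**Figure D2:**
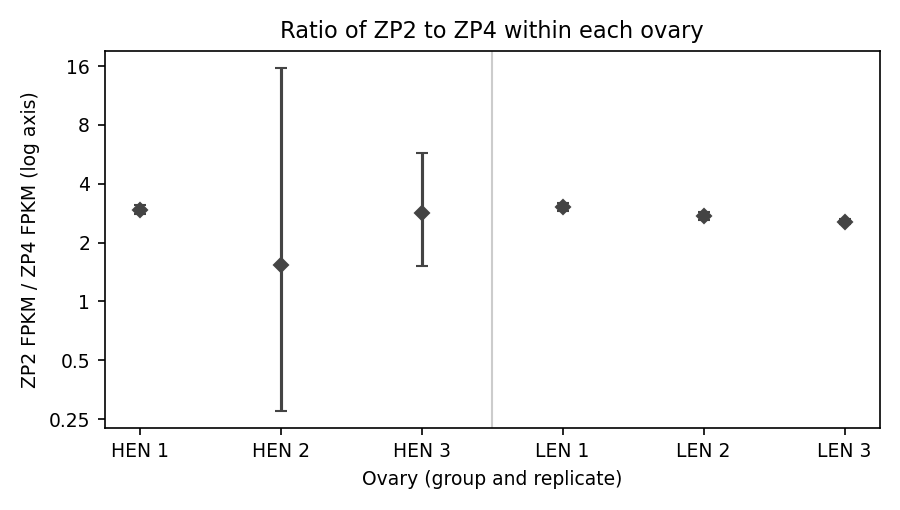
Ratio of ZP2 to ZP4, both in FPKM, within each of 3 HEN and 3 LEN ovaries, on a log axis. Bars are 95% Clopper-Pearson intervals from the inferred fragments. The ratio lies between 2.56 and 3.03 in 5 ovaries, and the interval of HEN replicate 2 spans all of these.

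ZP2 and ZP4 had nearly the same profile over the 6 ovaries. Profiles were compared by the root mean square difference between log2(FPKM + 1) values, each centred on its gene's mean over the 6 libraries. This distance was 0.547 between ZP2 and ZP4, against a median of 3.46 from ZP2 and 2.96 from ZP4 to the other 10101 named transcripts tested. Of these, 9 were nearer to ZP2 than ZP4 was, and 20 were nearer to ZP4 than ZP2 was. The distance is a description of 6 libraries that fall into separate clusters, so no correlation was computed.

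The 5 profiles nearest to ZP2 were those of KPNA7, CAV3, BTG4, BIRC7 and TMOD1, at distances of 0.311 to 0.423. KPNA7, a nuclear import receptor known from mammalian oocytes, was at 165.9, 0.0673 and 0.347 FPKM in HEN ovaries 1, 2 and 3, against 219, 139 and 395 FPKM in LEN ovaries 1, 2 and 3. It had the same low pair of libraries as ZP2 and the same highest one. CAV3, the muscle caveolin, was at 193, 0.116 and 0.598 FPKM in HEN, against 187, 174 and 313 FPKM in LEN. TMOD1, which caps the pointed ends of actin filaments, was at 297, 0.25 and 1.08 FPKM in HEN, against 251, 262 and 382 FPKM in LEN. For all 5 nearest genes the groups overlapped, unlike for ZP2, because HEN replicate 1 lay above at least 1 LEN ovary. BIRC7, an inhibitor of apoptosis protein, differed by -4.87 ± 1.81 (SE) on the log2(FPKM + 1) scale between HEN and LEN.

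Nearest to ZP4 were SYPL1, CCDC201, TBPL2, BRDT and ZAR1L, at distances of 0.29 to 0.388. SYPL1, a synaptophysin-like membrane protein, was at 76.4, 0.0717 and 0.221 FPKM in HEN ovaries 1, 2 and 3, against 141, 79.8 and 217 FPKM in LEN ovaries 1, 2 and 3. All HEN values of SYPL1 and BRDT lay below all LEN values, as for ZP4. For CCDC201, TBPL2 and ZAR1L the groups overlapped, because HEN replicate 1 lay above LEN replicate 2. TBPL2, a TATA-binding protein paralogue needed in mouse oocytes, was at 75.6, 0.0859 and 1.02 FPKM in HEN, against 126, 72.0 and 173 FPKM in LEN. BRDT, a bromodomain protein known from mammalian testis, was at 50.5, 0.057 and 0.0783 FPKM in HEN, against 63.2, 58.5 and 112 FPKM in LEN. CCDC201, a coiled-coil gene named through its Entrez identifier, differed by -4.85 ± 1.66 (SE) on the log2(FPKM + 1) scale. None of these 10 genes passed, with an adjusted p of 0.226 each in limma.

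**Figure D3:**
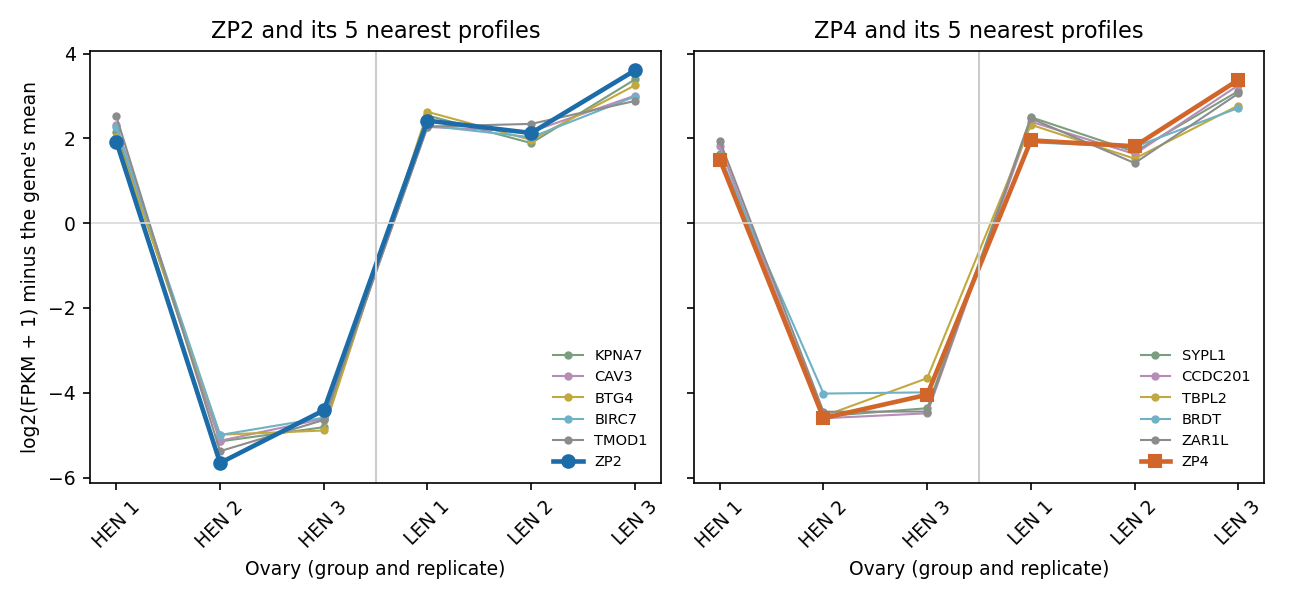
log2(FPKM + 1) minus each gene's mean over 6 ovaries, for ZP2 (left) and ZP4 (right) in heavy lines with the 5 named genes nearest to each. HEN replicates 2 and 3 are the low points of every line, and LEN replicate 3 is the highest point of ZP2 and ZP4.

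Genes known to act upstream of the egg coat genes, or beside them in the oocyte, were set against the pair. Of 8 oocyte transcription factors listed, 2 were matched to a row, and FIGLA was not among them. LHX8, a homeodomain factor of mouse oocytes, was at 19.5, 0 and 0 FPKM in HEN ovaries 1, 2 and 3, against 23.4, 17.2 and 33.6 FPKM in LEN ovaries 1, 2 and 3. TAF4B, a gonadal subunit of the general factor TFIID, was at 29.5, 0.787 and 0.86 FPKM in HEN, against 23.3, 29.3 and 31.8 FPKM in LEN. HEN replicate 1 fell within the LEN range for both. Their median difference was -2.91, against -0.24 over all transcripts.

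Of 11 oocyte secreted and maternal genes listed, 6 were matched to a row. All 6 had a lower mean log2 value in HEN, with a median difference of -3.74. BTG4, an adaptor for the decay of maternal messages in the mouse, was at 160 FPKM in HEN replicate 1 and 0.234 and 0.321 FPKM in the other HEN ovaries, against 240.4, 152 and 371 FPKM in LEN. ZAR1L, a homologue of the maternal factor ZAR1, differed by -4.63 ± 1.67, the kinase gene MOS, which holds mature oocytes in meiotic arrest, by -4.14 ± 1.52, and the cytoplasmic polyadenylation factor CPEB1 by -3.35 ± 1.08 (SE). Of the 6, CPEB1 alone had all HEN values below all LEN values. BMP15, an oocyte growth factor for granulosa cells, was at 29.9, 1.12 and 0.538 FPKM in HEN, against 49.5, 24.5 and 58.8 FPKM in LEN. All 6 had an unadjusted p under 0.05, where 16.9% of all transcripts were lower in HEN at that level, and none passed.

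Of 8 germ cell markers matched, 6 had a lower and 2 a higher mean log2 value in HEN, with a median difference of -2.73. DAZL, an RNA-binding protein of germ cells, was at 89.4, 0 and 0.124 FPKM in HEN ovaries 1, 2 and 3, against 142, 86.0 and 149 FPKM in LEN ovaries 1, 2 and 3. The helicase gene DDX4 was listed at 0 FPKM in HEN replicate 2 and at 0.208 FPKM in HEN replicate 3, and its HEN values lay below all LEN values. MAEL and PIWIL1, of the piRNA pathway, differed by -3.59 ± 1.22 and -2.68 ± 0.98 (SE). KIT and the synaptonemal complex genes SYCP1 and SYCP3 differed by -0.23 to 0.22, and SYCP3 overlaps another gene in position. KIT was at 8.96 FPKM in HEN replicate 2, against 5.77 to 11.1 FPKM in LEN. In bulk tissue, fewer oocytes and less RNA per oocyte cannot be told apart.

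**Figure D4:**
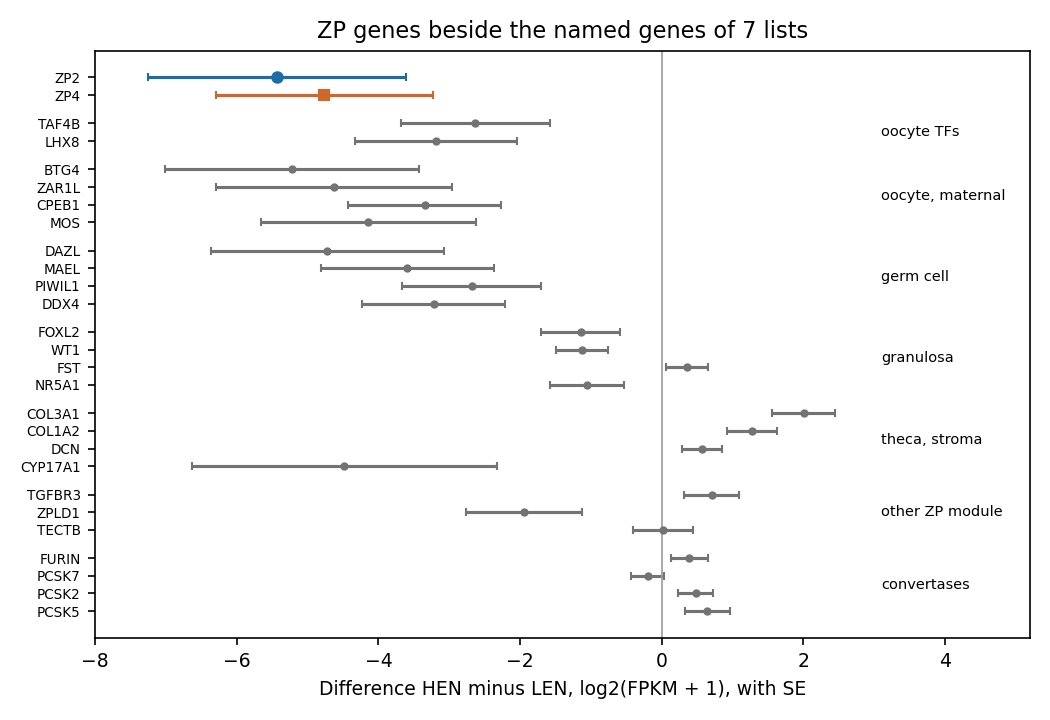
Difference of HEN minus LEN on the log2(FPKM + 1) scale with its SE (n = 3 per group) for ZP2, ZP4 and the named genes of 7 lists. ZP2 (-5.43) lies farthest to the left at this pseudocount, and the oocyte and germ cell genes plotted lie between -5.22 and -2.63. With a pseudocount of 0.01, DAZL (-7.95), LHX8 (-7.57) and BTG4 (-6.67) were lower than ZP2 (-6.59), and the other genes plotted were not. The named granulosa, stroma and convertase genes lie between -1.14 and 2.01, except CYP17A1 (-4.48). Of the oocyte and germ cell genes not plotted, BMP15, TDRD5 and PATL2 differed by -3.19 to -2.51. KIT, SYCP1 and SYCP3, also not plotted, differed by -0.23 to 0.22.

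On the measures given here, which both include LEN replicate 3, the egg coat genes stood at or near the edge of these 16 oocyte and germ cell genes. In HEN replicate 1 the 16 genes were at 58.6% to 153% of their LEN means (median 74.9%), and ZP2 at 51.9% and ZP4 at 47.4% were below each of them. Between LEN replicates 3 and 2 the 16 genes had ratios of 0.687 to 3.15 (median 1.84), and 15 of them had lower ratios than both ZP genes. ZAR1L, at 3.15, was the exception among the 16. The 8 other nearest-profile genes, chosen for their likeness to ZP2 or ZP4, were at 52.4% (SYPL1) to 99.7% (TMOD1) in HEN replicate 1. Their ratios between LEN replicates 3 and 2 ran from 1.46 (TMOD1) to 3.11 (CCDC201), and that of CCDC201 was above both ZP genes. Set against LEN replicate 1 alone, the ZP genes were not at the edge. ZP2 was at 219 FPKM in HEN replicate 1 and 309 FPKM in LEN replicate 1, and ZP4 at 74.2 and 102 FPKM. DDX4 was relatively lower, at 14.3 and 27.8 FPKM, and TAF4B relatively higher, at 29.5 and 23.3 FPKM. These are differences between single ducks without a test.

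The remaining ZP signal in the low libraries was higher in HEN replicate 3 than in HEN replicate 2. Relative to library size the ZP2 level was 11.3 times as high in HEN replicate 3 (exact binomial interval 4.94 to 32.0) and the ZP4 level 6.18 times as high (1.38 to 56.8). TBPL2 had 23 fragments in HEN replicate 3 and 2 in HEN replicate 2, and TMOD1 had 21 and 5. BTG4 had 4 and 3 fragments, ZAR1L 3 and 3, and CPEB1 66 and 75. Of the 15 listed oocyte and germ cell genes with any fragment in these libraries, 0 had an interval above 1, 4 had an interval below 1 (PATL2, KIT, SYCP3 and SYCP1) and 11 had one that held 1. Of the 8 other nearest-profile genes, which were chosen for their likeness to ZP2 or ZP4 in these same libraries, 4 had an interval above 1 (KPNA7, BIRC7, TMOD1 and TBPL2) and 4 had one that held 1. The 2 libraries are 1 duck each, and the intervals cover counting error only.

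Markers of the somatic cells of the ovary had list medians closer to 0 or above it. Granulosa markers (8 matched of 11) had a median difference of -0.28, with 5 lower and 3 higher, and their summed level was 323, 130 and 149.6 FPKM in HEN ovaries 1, 2 and 3, against 317, 309.6 and 299 FPKM in LEN. FOXL2, the granulosa transcription factor, whose position overlaps other genes, was at 175, 33.1 and 55.2 FPKM in HEN, against 152, 154 and 153 FPKM in LEN. WT1, a factor of the gonadal soma, had all HEN values (21.3 to 57.3 FPKM) below all LEN values (64.7 to 81.9 FPKM), while FST, the activin-binding follistatin, differed by 0.36 ± 0.30 (SE). NR5A1, the steroidogenic factor, overlaps another gene in position and differed by -1.05 ± 0.52 (SE). No granulosa marker was at 0 in any library, and the part of granulosa cells in the ZP levels was not tested.

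Theca and stroma markers (8 matched of 9) had a median difference of 0.73, and 5 of 8 lay above all LEN values in every HEN ovary, where 6.92% of all transcripts did so. The collagens COL3A1 and COL1A2 differed by 2.01 ± 0.44 and 1.28 ± 0.35 (SE), and DCN, the proteoglycan decorin, by 0.57 ± 0.28 (SE). CYP17A1, the androgen-forming enzyme, was instead at 239.6, 0.0945 and 0.146 FPKM in HEN ovaries 1, 2 and 3, against 521, 33.5 and 185 FPKM in LEN ovaries 1, 2 and 3, so that it was low in the same ovaries as ZP2 and ZP4. CYP19A1, the aromatase gene of the same list, was at 46.7, 2.61 and 5.69 FPKM in HEN, against 40.7, 70.7 and 41.5 FPKM in LEN, and was also lowest in HEN replicates 2 and 3. Summed smooth muscle markers were at 615 to 901 FPKM in HEN and 301 to 603 FPKM in LEN, leukocyte markers at 609 to 992 FPKM in HEN and 317 to 601 FPKM in LEN, and endothelial markers at 107 to 272 FPKM in HEN and 65.3 to 139 FPKM in LEN. Most of the smooth muscle sum came from ACTA2 and most of the leukocyte sum from CD74. All HEN values lay above all LEN values for 1 of 2 smooth muscle, 2 of 5 leukocyte and 2 of 5 endothelial markers. MYH11, of smooth muscle, differed by 0.24 ± 0.65, and CD3E, of leukocytes, by -0.67 ± 0.49 (SE). No marker of these 4 lists was at 0. Their part in the ZP result was not tested.

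Transcripts of 2 other tissues that make egg components were near 0 or overlapped between the groups. Of 8 liver markers matched, 2 had a mean of at least 1 FPKM. The summed level was 2599 to 8025 FPKM in HEN and 1760.4 to 3645 FPKM in LEN, nearly all of it from the apolipoprotein APOA1. APOA1 had 2 rows, of which the one with the higher mean was used, and its position overlaps another gene. ALB, the liver's albumin, was at 0.0239 to 0.139 FPKM in HEN and 0.113 to 0.474 FPKM in LEN. Oviduct markers (3 matched of 8) summed to 68.4 to 125 FPKM in HEN and 25.7 to 169 FPKM in LEN, mostly the lysozyme LYZ, and included VMO1, a protein of the outer vitelline membrane, at 0 to 0.282 FPKM in HEN and 0.0899 to 1.65 FPKM in LEN, and OVAL, ovalbumin, which was listed at 0 FPKM in all libraries except LEN replicate 3 (2.44 FPKM). LEN replicate 3 was also the ovary with the highest ZP2 and ZP4.

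Other genes whose proteins carry a ZP module had differences on both sides of 0. Of 6 matched, 3 passed the filter, with a median difference of 0.02. ZPLD1, a ZP-like domain protein, was the one nearest in pattern, at 9.26, 0.679 and 0.437 FPKM in HEN ovaries 1, 2 and 3, against 5.50, 9.43 and 20.01 FPKM in LEN ovaries 1, 2 and 3. HEN replicate 1 lay within the LEN range, and the difference of -1.95 ± 0.82 (SE) had an adjusted p of 0.227 in limma. TGFBR3, the coreceptor betaglycan, was at 44.6, 82.0 and 93.8 FPKM in HEN, against 53.1, 53.4 and 27.1 FPKM in LEN, opposite in direction to ZP2. TECTB, a tectorin of the inner ear, differed by 0.02 ± 0.42 (SE), with a sign that changed between settings, and OIT3 stayed below 0.9 FPKM in all 6 libraries.

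The proteases of the furin family, which release ZP proteins in mammals, were present in all 6 ovaries. FURIN was at 28.0, 16.5 and 21.1 FPKM in HEN ovaries 1, 2 and 3, against 16.7, 17.5 and 14.1 FPKM in LEN ovaries 1, 2 and 3. PCSK7 differed by -0.20 ± 0.23 (SE), and by 0.07 after upper quartile scaling. PCSK2 and PCSK5 differed by 0.48 ± 0.25 and 0.65 ± 0.32 (SE), with all HEN values above all LEN values, as for 6.92% of all transcripts. For the other convertases tested, FURIN, PCSK7 and PCSK6, the groups overlapped. None of the 5 convertases tested passed, and none had an unadjusted p under 0.05.

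Next to the ZP genes on their scaffolds lie 3 genes of the table. MCHR1, on the lower-coordinate side of ZP2, was listed at 0 FPKM in all 6 libraries. ANKS4B, 4129 bases beyond ZP2 on the other side, was at 4.59, 0.176 and 0.0452 FPKM in HEN, against 0.685, 0.581 and 1.08 FPKM in LEN, so that HEN replicates 2 and 3 were its lowest, as for ZP2, and HEN replicate 1 its highest. ENSAPLG00000002538, an unnamed gene 1438 bases from ZP4, was at 13.9, 21.6 and 14.8 FPKM in HEN, against 14.8, 17.0 and 12.8 FPKM in LEN, and its groups overlapped.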

How the data were processed

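Libraries were made from total RNA of ovarian tissue extracted with TRIzol, per the labels' protocols. The authors deposited FPKM values for 17169 Ensembl duck transcripts (22 listed again with the same values and used as 1 row), and the aligner, counting tool, strandedness and genome build are not given in the sources used here. Names came from the table's symbols (11101 transcripts) or, through Entrez identifiers, from RefSeq's IASCAAS_PekinDuck_T2T gene table (710). Each library's fragments were inferred from short noncoding genes, and each gene's length as the smallest that made its 6 values whole within 0.0001 of a fragment, which 784 of 784 sampled coding transcripts allowed. A multiple of that length would fit as well.

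HEN and LEN were compared on log2(FPKM + 1), for rows averaging 1 FPKM or more, with limma 3.58.1 in R 4.3.3. Settings were trend, group as the only term, two-sided, Benjamini-Hochberg over 13328 transcripts and a threshold of 0.05. The fit was tried on simulated data in which both groups had the spread of the LEN libraries. That trial does not cover the spread among the HEN libraries. For ZP2 the SD of log2(FPKM + 1) was 4.06 in HEN and 0.782 in LEN. ZP2 and ZP4 both passed the filter, through HEN replicate 1 and the LEN libraries. No FPKM value entered a count test. Members and lists were chosen with earlier results of these data known. Named were the ZP genes, up to 4 genes of highest mean per list in 7 lists, and the 5 nearest profiles per ZP gene. BMP15, PATL2, CYP19A1, KIT, SYCP1, SYCP3, ALB, VMO1, OVAL, APOA1, LYZ and the scaffold neighbours were added after their values were seen. So were ACTA2, MYH11, CD74 and CD3E. TDRD5 and PCSK6 were also named outside the rule for naming. Alternatives were other pseudocounts, filters, scalings, variance settings and thresholds, array weights, a replicate block, rows summed per symbol and leaving libraries out. No sequencing batch was labelled.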

Additional observations from a re-analysis of the deposited data

How the results depend on the processing

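ZP2 and ZP4 were lower in HEN under each of the 20 alternative fits. Both were called (2 of 2, against 0 of 2 as reported) without HEN replicate 1 and with arrayWeights, where the differences were -7.11 for ZP2 and -6.09 for ZP4 (adjusted p = 1.33e-04 in limma for both) and 43% of all transcripts were called lower and 16.5% higher. The weight of HEN replicate 1 was 0.114 there. Leaving out 1 library at a time gave differences of -7.75 to -3.96 for ZP2 and -6.70 to -3.65 for ZP4, 0 to 2 ZP genes called and 0 to 6501 transcripts called. The number of transcripts called was 7922 with arrayWeights, 1 with a pseudocount of 0.1 and 1 without HEN replicates 2 and 3, and 0 in the other settings that kept all libraries, a threshold of 0.1 included. The cause was not tested.

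Of 33 other genes named by rule, 7 changed sign in some setting. Genes added after their values were seen were not among these 33. Of those, MYH11 went from 0.24 to -0.035 and SYCP1 from 0.11 to -0.021 without HEN replicate 1. KIT, SYCP3 and CD3E kept their sign there. Without HEN replicates 2 and 3 the differences were 0.079 for TAF4B, 0.198 for FOXL2, 0.146 for NR5A1, 0.685 for CYP17A1, 0.022 for TMOD1 and 0.058 for PCSK7. PCSK7 was at 0.067 under upper quartile scaling, 0.059 under trimmed mean scaling and 0.093 under quantile normalization. TECTB was at -0.027 and -0.037 with pseudocounts of 0.1 and 0.01, and between -0.198 and 0.4595 when 1 library at a time was left out. Deviations from the group means in libraries of the same number had no common direction (r of 0.017, 0.38 and -0.42 for replicates 1, 2 and 3). Libraries of different numbers were not compared in this way. With the replicate number as a block, the differences of ZP2 and ZP4 were -5.43 and -4.76 (adjusted p = 0.219 in limma) and 0 transcripts were called. Depth limits the values of HEN replicate 2, where ZP4 rests on 2 fragments, and the ZP4 value of HEN replicate 3, which rests on 12.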
